A study of Mus musculus with 219 samples.

Results

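The GADD45 family has 3 members in the mouse, Gadd45a, Gadd45b and Gadd45g. They were taken by their Ensembl identifiers, matched through the GENCODE vM21 annotation, and all 3 were found among the 55487 gene identifiers of the deposited count tables. All 3 also passed the filter on low counts, which left 17193 genes tested in a daily atlas and 18841 in a table of mice collected at a single time of day.

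GADD45 proteins (growth arrest and DNA damage inducible) are small proteins with no known enzyme activity of their own that act by binding other proteins. Their partners include the kinase MTK1 (Map3k4), which starts the p38 and JNK stress cascades, the replication clamp PCNA, the cell cycle inhibitor p21 (Cdkn1a) and the complex of CDK1 with cyclin B1. Gadd45a is a target of p53, Gadd45b is induced by electrical activity in neurons and has been tied to active DNA demethylation at promoters there, and Gadd45g was described as a gene induced by cytokines.

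The data were total RNA sequencing libraries of left prefrontal cortex. The atlas came from wild-type mice (WT/WT, written Snord116+/+Ctg-/- in the labels) housed in home cages, lit for 12 h and dark for 12 h a day, and taken at about 12 weeks of age. Its 92 libraries covered both sexes at 8 times in zeitgeber time (ZT, the hours since the lights came on), with 6 libraries per sex and time and 5 at ZT18 and ZT21. The other table held 126 libraries of mice collected at ZT6. They had entered incubator housing at about 8 weeks of age, had 7 days of acclimation and were entrained for 22 days to 12 h light and 12 h dark (12:12) or 11 h light and 11 h dark (11:11). One set spent the last 7 of those days with access to running wheels, its cycle still on at collection (RW, L:D). The other went to indirect calorimetry chambers after entrainment and was collected in darkness (CLAMS, D:D). For this set ZT6 is the time named in the labels, which do not give the phase of the animals' daily rhythm at collection. Each set held males and females of 4 genotypes: WT/WT, HET/WT (Snord116+/-Ctg-/-, 1 copy of Snord116 deleted), WT/TG (Snord116+/+Ctg+/-, a carrier of the transgene labelled Ctg) and HET/TG (Snord116+/-Ctg+/-, both changes). There were 4 libraries per combination, except 3 for the WT/TG males of the calorimetry set on 11:11 and of the running wheel set on 12:12. The labels name these libraries biological replicates, and they do not say from which parent the deletion came or where the transgene is expressed.

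Total counts, to 6 digits, ran from 12995500 to 18420300 per atlas library and from 12737700 to 29856500 per ZT6 library. Snhg14, the long transcript that hosts the Snord116 RNAs, lay between 20.2 and 69.3 counts-per-million units (CPM) in 63 of the 64 libraries labelled with the deletion and between 115.9 and 280.6 CPM in those without it. The remaining library, labelled HET/WT (replicate 3 of the RW females on 11:11), had 167.3 CPM. Leaving it out changed the call of no GADD45 gene. All 6 markers of cortical excitatory neurons, among them Slc17a7, were measured and summed to 3331 to 4618 CPM in the atlas and 3720 to 7255 CPM at ZT6. Markers of striatal neurons (93.7 to 1180 CPM summed in the atlas) and choroid plexus (3.70 to 2683 CPM at ZT6) varied widely between libraries. The libraries also differed in how counts depended on transcript length. The slope of log2 CPM on log2 length, relative to the table's mean, was −0.071 ± 0.029 in CLAMS males and −0.0082 ± 0.021 in CLAMS females (SD, n = 31 and 32). It was 0.0083 ± 0.018 in RW males and 0.069 ± 0.015 in RW females (SD, n = 31 and 32).

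In GRCm38 (mm10) coordinates Gadd45a (ENSMUSG00000036390) lies on chromosome 6 from 67035096 to 67037457 on the minus strand, with 1764 bases of exon. Gadd45b (ENSMUSG00000015312) lies on chromosome 10 from 80930073 to 80932204 on the plus strand, with 1589 bases of exon. Gadd45g (ENSMUSG00000021453) lies on chromosome 13 from 51846678 to 51848468 on the plus strand, with 1173 bases of exon. An antisense noncoding gene, E230016M11Rik, overlaps the first 859 bases of Gadd45a on the plus strand, 337 of them exonic in both, and its summed counts came to 40.2% of those of Gadd45a in the atlas and 40.5% at ZT6. The strand setting of the counting is not given in the sources used here, so its values stand below beside those of Gadd45a.

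Because the 3 genes followed different courses over the day, the stretch before each start site is shown. The sequences are from RefSeq (GRCm38.p6), read 5′ to 3′ on the gene's own strand, and run from 250 to 51 bases before the RefSeq start. Capitals mark the E-box, whose letters are CACGTG and which clock and other helix-loop-helix factors can bind. They also mark the CCAAT box, a common promoter element. The last motif in capitals is the GC box, known for binding Sp factors, whose letters are GGGCGG on either strand.
Gadd45a, chr6:67037458-67037657, minus strand: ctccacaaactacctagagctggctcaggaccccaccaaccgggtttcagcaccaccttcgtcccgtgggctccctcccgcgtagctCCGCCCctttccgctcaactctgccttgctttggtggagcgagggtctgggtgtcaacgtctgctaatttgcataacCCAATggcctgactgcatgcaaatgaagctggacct
Gadd45b, chr10:80929841-80930040, plus strand: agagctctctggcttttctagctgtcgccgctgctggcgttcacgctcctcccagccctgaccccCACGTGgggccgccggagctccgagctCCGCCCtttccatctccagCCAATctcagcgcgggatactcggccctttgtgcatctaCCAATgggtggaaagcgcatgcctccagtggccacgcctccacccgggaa
Gadd45g, chr13:51846425-51846624, plus strand: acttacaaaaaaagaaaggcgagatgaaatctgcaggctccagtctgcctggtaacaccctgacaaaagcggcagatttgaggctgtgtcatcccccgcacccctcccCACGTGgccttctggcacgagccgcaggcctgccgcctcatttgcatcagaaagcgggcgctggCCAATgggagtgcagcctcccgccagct

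Searched on both strands, the E-box CACGTG was found in the windows of Gadd45b, 185 bases before the start, and of Gadd45g, 142 bases before it. It was not among the letters of the Gadd45a window. Of 32851 promoter windows of this length in the table, 4.34% held it. CCAAT was found in all 3 windows, against 28.4% of all windows, and GGGCGG in those of Gadd45a and Gadd45b, against 24.6%. No window held the cyclic AMP response element TGACGTCA (0.828% of all windows), the AP-1 motif TGANTCA (5.57%) or the D-box TTANGTAA (1.76%). None of these motifs overlapped another in the 3 windows. A match or its absence is a description of these letters and not of binding.

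Per kilobase of exon, the 3 genes were expressed at like levels in the atlas. Gadd45b had 3.84 ± 0.62 CPM per kb, Gadd45g 3.70 ± 0.73 and Gadd45a 3.41 ± 1.17 (SD over 92 libraries), so no neighbours in this order differed beyond their spread. These levels stood at the 47.3rd, 46.4th and 44.4th percentiles of 14327 protein-coding genes tested. In the ZT6 table, which was scaled separately, the order was Gadd45b at 5.82 ± 1.33, Gadd45g at 4.61 ± 1.19 and Gadd45a at 3.78 ± 1.10 CPM per kb (SD over 126 libraries), again with neighbours apart by about as much as their spread or less. All levels below are CPM for the whole gene and are compared only within a gene.

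Gadd45a had a strong daily rhythm in wild-type prefrontal cortex, with low medians from ZT3 to ZT12 and its highest median at ZT18. Gadd45b and Gadd45g had no 24 h rhythm that passed the test. Across the atlas 41.4% of genes passed the rhythm test (edgeR quasi-likelihood, cosine and sine of 24 h with sex in the model, Benjamini-Hochberg adjusted p under 0.05), and 1 of the 3 members did. By itself that count is close to the background. The size of the Gadd45a rhythm was not: 174 of the 7117 genes called had a larger peak-to-trough fold, and the median peak-to-trough difference of those 7117 was 0.19 on the log2 scale.

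Levels of Gadd45a are given as the lowest, median and highest library of both sexes. They were 3.79, 7.70 and 9.30 CPM at ZT0, when the lights came on, and 3.62, 4.66 and 6.50 CPM at ZT3. At ZT6 they were 2.71, 4.50 and 6.78 CPM, at ZT9 3.71, 4.74 and 6.91 CPM, and at ZT12, when the lights went off, 3.56, 4.38 and 5.93 CPM. From ZT3 to ZT12 the medians thus stayed within a narrow band. At ZT15 the lowest, median and highest were 4.41, 7.67 and 10.2 CPM, at ZT18 6.81, 8.59 and 10.9 CPM, and at ZT21 3.31, 5.64 and 10.97 CPM. Every one of the 10 libraries at ZT18 lay above every library at ZT3, ZT6 and ZT12. At ZT21, by contrast, the values spread over most of the range of the day. The 5 males at that time lay between 4.17 and 5.33 CPM except for 1 library at 10.2 CPM.

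The fitted 24 h curve of Gadd45a had a peak-to-trough difference of 0.90 ± 0.11 on the log2 scale (SE), which is 1.87-fold with a 95% interval of 1.61 to 2.17, and it peaked at ZT 19.02 (18.1 to 19.9). Its adjusted p was 1.01e-09 (edgeR). Both sexes showed it: fitted alone, females had a 1.90-fold rhythm with its peak at ZT 19.2 and males a 1.84-fold rhythm with its peak at ZT 18.8. The difference between the sexes in the shape of the curve did not pass the test for any of the 3 members (13 genes or 0.0756% of all did, and 1334 at an unadjusted p under 0.05), with an adjusted p of 0.989 for Gadd45a, 0.562 for Gadd45b and 0.648 for Gadd45g.

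Most of the rise of Gadd45a fell into the 3 h after lights off. Between ZT12 and ZT15 its mean went from 4.53 ± 0.77 to 7.67 ± 1.52 CPM (SD, n = 12 each), a log2 difference of 0.75 with an adjusted p of 7.68e-05 (edgeR, 7.64% of genes called in that step). Between ZT0 and ZT3 it fell by 0.55 on the log2 scale with an adjusted p of 0.011 (edgeR, 2.43% of genes called). In the other 6 steps between successive times it did not pass. Of all genes, 3.75% passed from ZT3 to ZT6, 0.204% from ZT6 to ZT9, 0.111% from ZT9 to ZT12, 0.163% from ZT15 to ZT18, 0.0116% from ZT18 to ZT21 and 1.2% from ZT21 to ZT0. The steps without a call included the difference of −0.39 between ZT18 and ZT21 (edgeR adjusted p = 0.50), a step in which the values of single libraries spread most. These steps were added to the comparisons after the data had been seen.

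**Figure D1:**
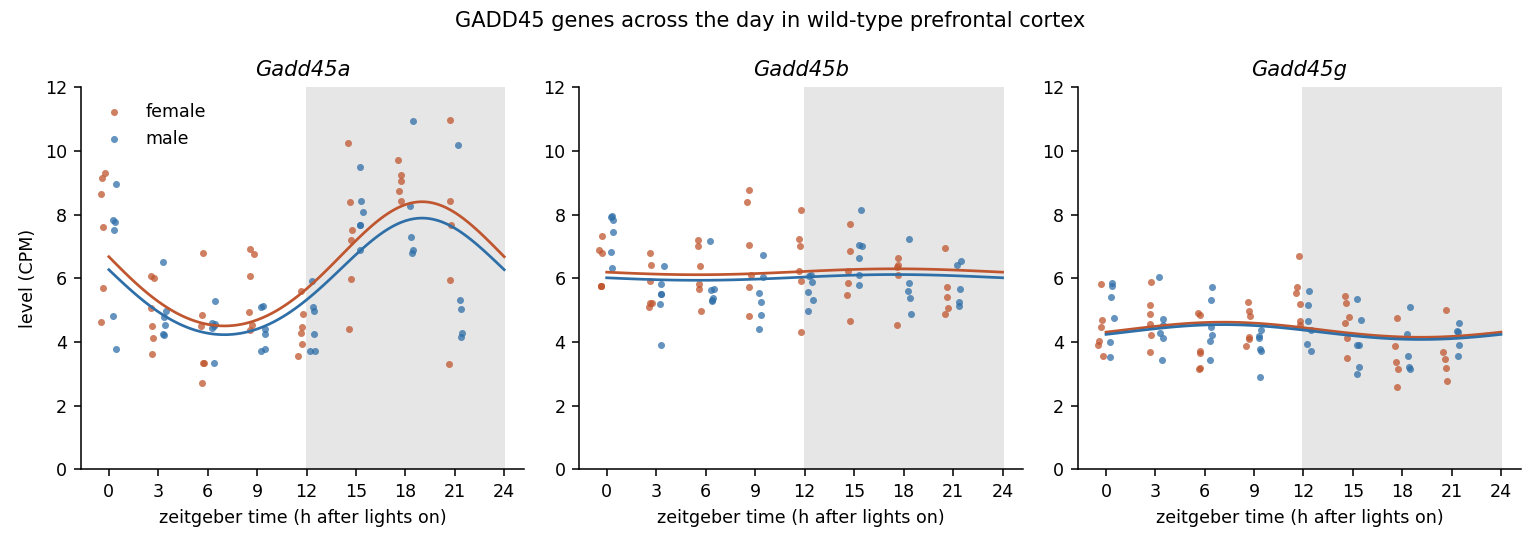
Level in CPM (vertical axis) of each GADD45 gene against zeitgeber time in hours (horizontal axis) in the 92 atlas libraries. Points are orange for females and blue for males, and grey shading marks the dark phase. Lines are the fitted 24 h curve, with a shape and peak time shared by both sexes and a level for each. The fitted Gadd45a curve was 1.87-fold higher at its peak at ZT 19.02 than at its trough, while the curves of Gadd45b and Gadd45g were close to flat.

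Gadd45b varied little over the day. Its median ran from 5.51 CPM at ZT3 to 6.86 CPM at ZT0, and its lowest and highest libraries were 3.92 CPM at ZT3 and 8.76 CPM at ZT9. The fitted peak-to-trough fold, from a curve shared by the sexes, was 1.03 with an upper limit of 1.13 (edgeR adjusted p = 0.866). Fitted alone, females had a 1.12-fold curve with its peak at ZT 9.95 and males a 1.16-fold curve with its peak at ZT 20.4. Neither passed (edgeR adjusted p = 0.408 and 0.171, with 3215 and 4305 genes called). The difference between the sexes in the curve had an unadjusted p of 0.0239 (edgeR) and, as given above, did not pass after adjustment. Among the steps between successive times only that from ZT0 to ZT3 passed, a fall by 0.30 on the log2 scale (edgeR adjusted p = 0.0397), the same step in which Gadd45a fell. At ZT0 the lowest and highest libraries were 5.76 and 7.97 CPM and at ZT3 3.92 and 6.79 CPM, so the groups overlapped.

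Gadd45g did not pass as a 24 h rhythm (1.11-fold, upper limit 1.25, edgeR adjusted p = 0.286), but it varied over the day in another shape. Its highest median was 4.92 CPM at ZT12 (lowest and highest library 3.72 and 6.71 CPM) and its lowest 3.48 CPM at ZT18 (2.60 and 5.10 CPM). With the 8 times as separate levels it passed, with a log2 difference of 0.42 between the highest time, ZT12, and the lowest (edgeR adjusted p = 0.0203, 33.9% of genes called). It also passed with a 12 h term beside the 24 h term (edgeR adjusted p = 0.00338, 38.1% of genes called). No step of Gadd45g between successive times passed, and the libraries at ZT12 and ZT18 overlapped. Fitted alone, females had a 1.22-fold 24 h curve with its peak at ZT 9.73 and males a 1.15-fold curve with its peak at ZT 2.79. Neither passed (edgeR adjusted p = 0.164 and 0.313), and the unadjusted p of the difference between the sexes in the curve was 0.0509 (edgeR).

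Marker genes of some cell types moved over the day beside these genes. Of 6 excitatory neuron markers 4 passed with a peak in the dark, but their summed level had medians between 3964 and 4137 CPM at the 8 times. Of 6 oligodendrocyte markers 5 passed with a peak in the light. All 6 microglia markers passed, 5 with a peak in the light, as did 5 of 6 astrocyte markers, 4 of them in the light, 5 of 6 endothelial and mural markers, 3 in the light, and 3 of 4 olfactory bulb markers, all in the light. Of 6 choroid plexus markers 2 passed, both with a peak in the dark, and the median peak-to-trough difference of the 6 was 1.47 on the log2 scale. Of 6 inhibitory neuron markers 1 passed, in the dark, and of 4 oligodendrocyte precursor markers 1, in the light. No striatal or blood marker passed. The part of all these markers in the Gadd45a rhythm was not tested. E230016M11Rik, the antisense neighbour, had a peak-to-trough difference of 0.22 on the log2 scale with its peak at ZT 10.6 and did not pass (edgeR adjusted p = 0.105). In bulk tissue, fewer cells of a type and less RNA per cell cannot be told apart.

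Against the 41.4% of all genes that were rhythmic, genes that encode partners and pathways of the family passed in part, and immediate early genes mostly passed. Of 14 measured partner proteins of GADD45, 6 passed, with the smallest p for Ccnd1, encoding cyclin D1 (0.39 peak to trough on the log2 scale, edgeR adjusted p = 3.66e-13), and Cdkn1a, encoding p21 (0.39, edgeR adjusted p = 5.06e-05). In the p38 and JNK cascade 12 of 18 passed, led by Jun and Mapk12, among genes of active DNA demethylation 8 of 17, led by Tet3 and Ing1, and among p53 target genes 10 of 19, led by Plk2 and Mdm2. Of 25 immediate early genes, which neurons switch on within minutes of firing, 22 passed and 20 of these peaked in the dark, as did 48.6% of all rhythmic genes. Egr1, a transcription factor gene of this class, had a peak-to-trough difference of 1.12 on the log2 scale with its peak at ZT 18.7, close to that of Gadd45a. Of 20 glucocorticoid targets 18 passed, with Plin4 at 2.32 and Tsc22d3 at 0.61 peak to trough (log2). Of 20 core clock genes 19 passed, with Ciart at 1.81 and Dbp at 1.39, both with their peak at ZT 12.0. Of 15 genes of the integrated stress response 7 passed, a share near that of all genes, and these 7 peaked in the dark, among them the chaperone gene Hspa5 at 0.66 and Herpud1 at 0.35. The median peak-to-trough difference was 0.62 for the immediate early genes against 0.14 for all genes tested.

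The genes whose level followed each member most closely were named by Pearson's r over all libraries of a table, among 11244 genes in the atlas and 11198 at ZT6. These are descriptions, and no test was made. Libraries of one table differ in sex and depth, those of the atlas also in time of day, and those at ZT6 in set, light cycle and genotype. Genes that follow the same one of these are correlated through it. For Gadd45a in the atlas (n = 92) they were Midn with an r of 0.87, Dnajb5 with 0.85, Egr1 with 0.85, Ier5 with 0.83 and Dusp6 with 0.80. Egr1 and Ier5 are immediate early genes, and Dusp6 encodes a phosphatase of the ERK kinases. At ZT6 (n = 126), where all mice were labelled with the same collection time, Ier5 with 0.71 and Arc, an immediate early gene of synapses, with 0.70 came first, then Irf2bp2, Manf and Rsrp1.

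For Gadd45b the likest genes included the immediate early genes Dusp1, Junb, Ier2, Nr4a1 and Arc, with lower values than those of Gadd45a. In the atlas (n = 92) they were Dusp1 with an r of 0.56, Mcl1 with 0.55, Junb with 0.55, Ier2 with 0.53 and Btg2 with 0.52. At ZT6 (n = 126) Junb had 0.62, Arc 0.57, Mcl1 0.56, Nr4a1 0.56 and Arl4d 0.54. Junb itself was rhythmic (0.83 peak to trough on the log2 scale, edgeR adjusted p = 2.93e-04). For Gadd45g no gene reached 0.50 in the atlas (n = 92), where Dock9 with 0.49 and Ddit4 with 0.48 came first, followed by Sec24d, Entpd6 and Gpc4. At ZT6 (n = 126) the list was led by Cdk4, the cyclin D kinase, with 0.53, followed by D10Jhu81e, Phb2 and Cib1.

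Within groups, the members followed each other weakly. The correlation of deviations from the group means was 0.34 between Gadd45a and Gadd45b in the atlas (n = 92) and 0.40 at ZT6 (n = 126). Between Gadd45b and Gadd45g it was 0.15 (n = 92) and 0.34 (n = 126), and between Gadd45a and Gadd45g it was −0.21 (n = 92) and −0.03 (n = 126).

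**Figure D2:**
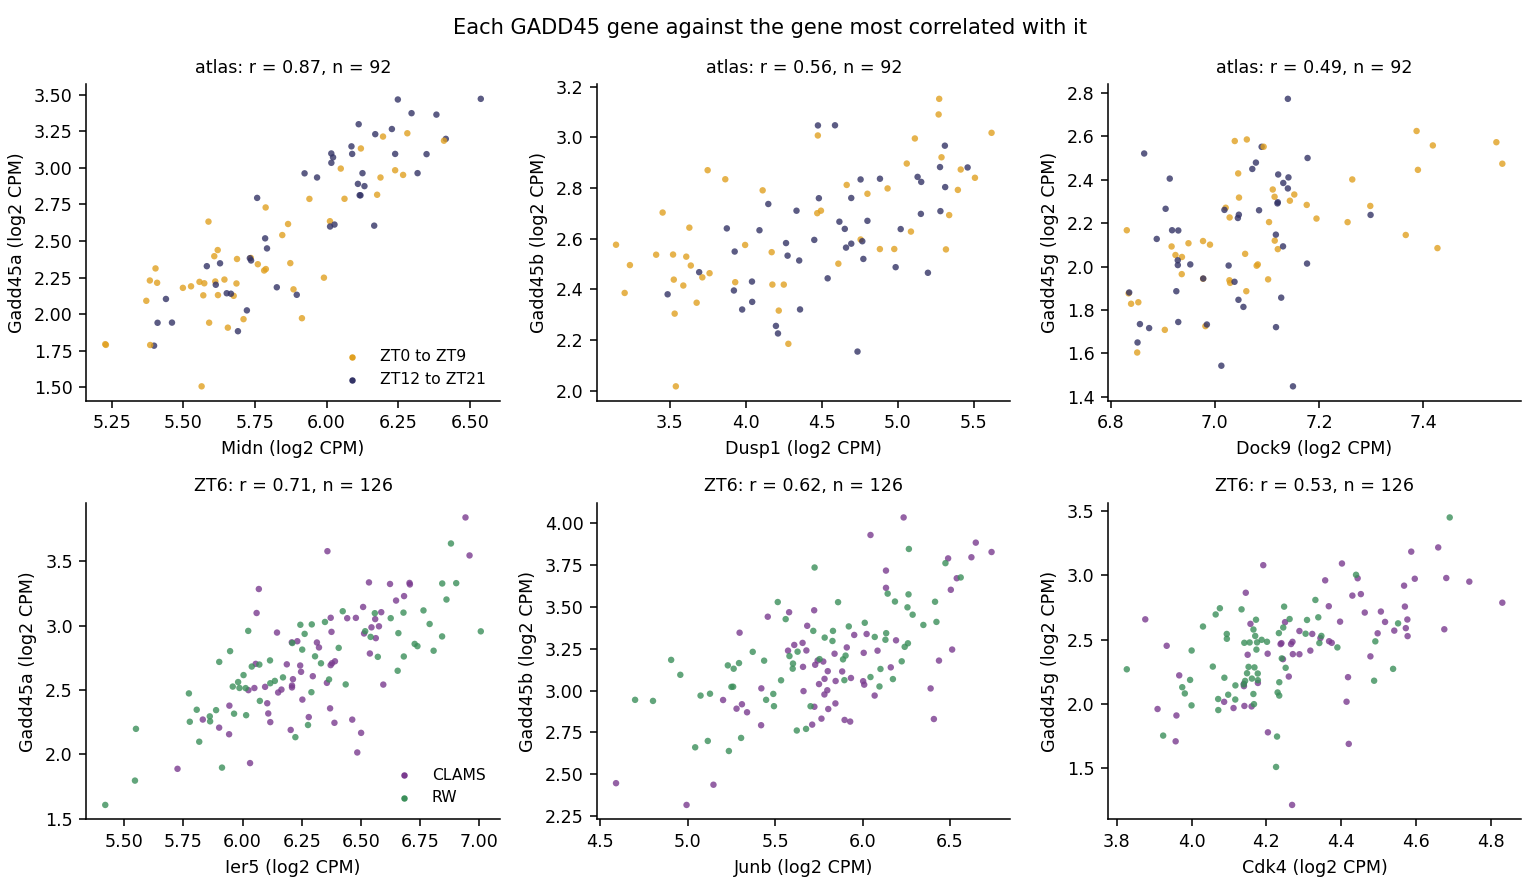
Level of each GADD45 gene in log2 CPM (vertical axis) against that of the gene most correlated with it (horizontal axis), in the atlas (top row, yellow for ZT0 to ZT9 and dark blue for ZT12 to ZT21) and at ZT6 (bottom row, purple for CLAMS and green for RW). Each point is a library; r fell from 0.87 for Gadd45a to 0.49 for Gadd45g in the atlas.

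At ZT6, Gadd45a was higher on the 11:11 than on the 12:12 cycle in the calorimetry set, and no such difference was detected in the running wheel set. Gadd45b and Gadd45g did not differ detectably between the cycles in either set. In the calorimetry set Gadd45a was 3.70, 7.82 and 14.2 CPM in the lowest, median and highest of 31 libraries on 11:11, and 3.59, 5.82 and 9.64 CPM in those of 32 libraries on 12:12. The lowest values were alike and the upper part of the range was higher on 11:11. The SD was also larger there, 2.503 CPM around a mean of 7.64 CPM against 1.38 CPM around 6.03 CPM.

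The difference in the calorimetry set was 0.33 ± 0.094 on the log2 scale (SE), 1.26-fold, with an edgeR adjusted p of 0.00603. In this comparison 19.6% of all genes and 1 of the 3 members passed. The mean was higher on 11:11 in 7 of the 8 combinations of sex and genotype. The exception was the WT/WT females of that set, with 6.34 ± 2.33 CPM on 11:11 and 6.76 ± 1.68 CPM on 12:12 (SD, n = 4 each). By sex the differences were alike, 0.34 in females (edgeR adjusted p = 0.0714, 12.3% of genes called) and 0.32 in males (edgeR adjusted p = 0.0947, 13.5% of genes called), and neither passed alone. Once each library's length slope was added as a covariate, the difference was 0.24 and no longer passed (edgeR adjusted p = 0.104). That slope averaged −0.027 ± 0.044 on 11:11 and −0.051 ± 0.033 on 12:12 (SD, n = 31 and 32). In mice collected in darkness, the light cycle and the phase of the daily rhythm at collection cannot be told apart.

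In the running wheel set Gadd45a was 3.36, 6.50 and 12.3 CPM in the lowest, median and highest of 32 libraries on 11:11 and 2.93, 6.42 and 8.57 CPM in those of 31 libraries on 12:12. The difference was 0.04 on the log2 scale with a 95% interval from −0.14 to 0.23 (edgeR adjusted p = 0.975). Only 0.069% of all genes passed in this set (13 genes, 1405 at an unadjusted p under 0.05). The interaction of light cycle with set was 0.29 for Gadd45a, with a 95% interval from 0.028 to 0.55, and did not pass (edgeR adjusted p = 0.207, 5.32% of genes called). The sets are therefore not shown to differ in this effect. Over both sets together the difference was 0.19 on the log2 scale, just past the threshold (edgeR adjusted p = 0.0448, 12.6% of genes called). It no longer passed with another scaling, with the length slope as a covariate, without the 6 deepest libraries or without the library richest in ribosomal RNA, where it was 0.12 to 0.18.

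**Figure D3:**
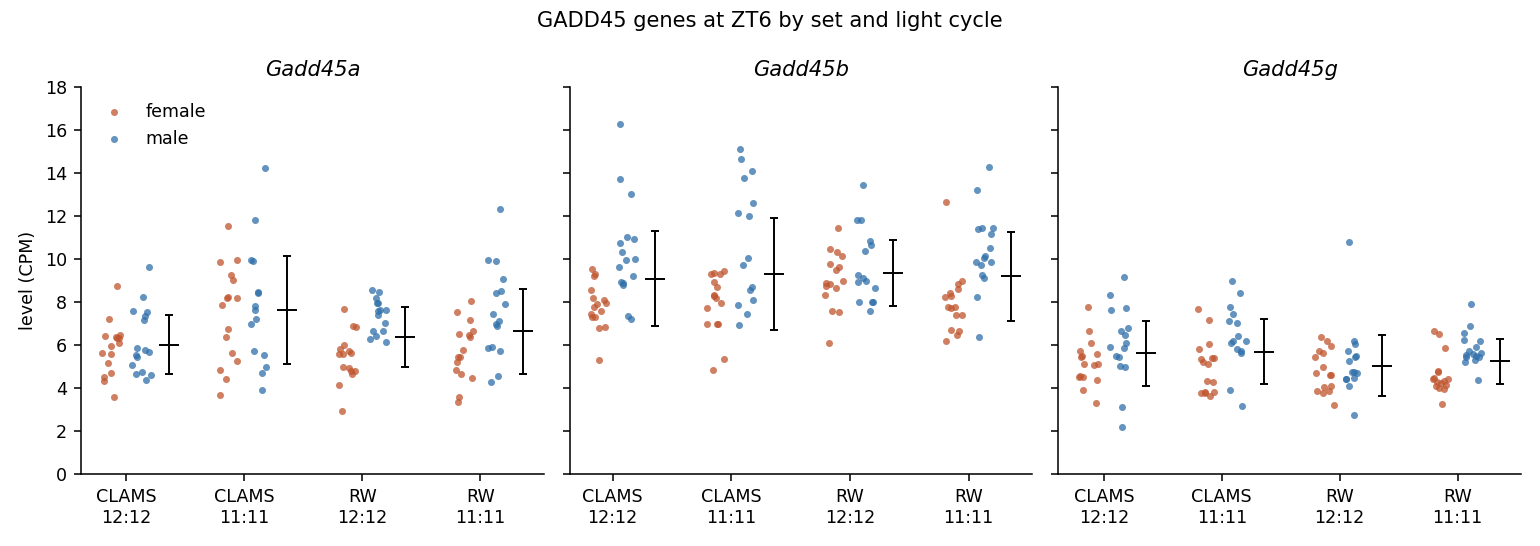
Level in CPM (vertical axis) of each GADD45 gene at ZT6 by set and light cycle (horizontal axis), 1 point per library, orange for females and blue for males, with the mean and SD of each group in black. Gadd45a reached 14.2 CPM on 11:11 in the calorimetry set, against at most 9.64 CPM on 12:12, and the difference was 0.33 on the log2 scale. In the running wheel set its highest library was also on 11:11, but the difference was 0.04 and was not detected. The groups of Gadd45b and Gadd45g covered similar ranges.

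Gadd45b had medians of 8.70 CPM on 11:11 and 8.85 CPM on 12:12 in the calorimetry set, and 8.93 and 8.99 CPM in the running wheel set. Its light cycle difference was 0.05 in the former (95% interval −0.08 to 0.17, edgeR adjusted p = 0.68) and −0.03 in the latter (−0.16 to 0.09, edgeR adjusted p = 0.971). Gadd45g had medians of 5.74 and 5.49 CPM in the calorimetry set, and its difference was 0.03 (−0.13 to 0.19, edgeR adjusted p = 0.868). In the running wheel set its medians were 5.38 and 4.75 CPM and its difference was 0.05 (−0.11 to 0.22, edgeR adjusted p = 0.962). A p that misses the threshold does not show that a gene stayed the same, and the intervals give the changes these data leave possible.

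The antisense neighbour of Gadd45a moved the other way with the light cycle: E230016M11Rik was lower on 11:11 by 0.23 on the log2 scale in the calorimetry set (edgeR adjusted p = 0.0433). In the running wheel set it differed by −0.24 without passing (edgeR adjusted p = 0.43), and its differences in the sets were 0.0091 apart (edgeR adjusted p = 0.985). In the calorimetry set blood markers were also lower on 11:11 in 4 of 6 cases. Their summed level there was 44.3 to 281 CPM (median 93.6) on 11:11 and 68.5 to 377 CPM (median 168) on 12:12. Markers of other cell types passed in that set too, where 19.6% of all genes did. Of 4 oligodendrocyte precursor markers 2 were higher on 11:11, as were 2 of 6 each for excitatory neurons, astrocytes and microglia. Oligodendrocyte markers and endothelial and mural markers were each higher in 1 of 6 cases, and 1 of 6 striatal markers was lower. No inhibitory neuron, choroid plexus or olfactory bulb marker passed. The part of blood and of these other markers in the Gadd45a difference was not tested.

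Lists of related genes were read against the 19.6% of all genes that passed in the calorimetry set, 10.4% higher on 11:11. Of 25 immediate early genes 16 passed, all higher on 11:11, as did 15 of 20 glucocorticoid targets. Of 20 core clock genes 12 were higher and 1 lower. Egr1, the immediate early gene likest to Gadd45a in the atlas, was higher by 0.58 on the log2 scale (edgeR adjusted p = 1.05e-06), and Arc by 0.62 (edgeR adjusted p = 5.96e-04). Most genes of the other lists did not pass: 5 of 15 genes of the integrated stress response and 5 of 18 of the p38 and JNK cascade were higher, and of 20 p53 targets 6 were higher and 1 lower. The partners of GADD45, with 3 of 15, and genes of active DNA demethylation, with 4 of 17, passed about as often as all genes. In the running wheel set none of the genes on these lists passed except 3 core clock genes.

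Over both sets, where 12.6% of all genes passed, the lists closest to GADD45 held few calls. Map3k4, the kinase that GADD45 proteins activate, was the only one of 15 partners to pass, higher on 11:11 by 0.08 (edgeR adjusted p = 0.0019). Its difference was 0.14 in the calorimetry set and 0.02 in the running wheel set, and the sets differed (edgeR adjusted p = 0.0349). Parp1 was the only one of 17 demethylation genes, higher by 0.11 (edgeR adjusted p = 1.33e-04). In the p38 and JNK cascade 4 of 18 passed, among them Map2k6, a kinase that activates p38, higher by 0.12 (edgeR adjusted p = 4.77e-04). Of 20 p53 targets 6 passed, among them Perp, higher by 0.21 (edgeR adjusted p = 0.0105).

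The 4 genotypes did not differ detectably in any member. The 3 comparisons share the WT/WT libraries. Gadd45a had a median of 6.52 CPM in WT/WT (3.61 to 12.3), 6.73 CPM in HET/WT (2.93 to 11.6), 6.00 CPM in WT/TG (4.34 to 9.99) and 6.47 CPM in HET/TG (3.36 to 14.2), over 30 to 32 libraries each. Gadd45b had medians of 8.75, 8.95, 8.80 and 9.14 CPM and Gadd45g of 5.47, 5.52, 5.21 and 5.31 CPM in the same order. All groups overlapped over most of their range.

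Against WT/WT, the HET/WT mice differed by −0.02 on the log2 scale in Gadd45a (95% interval −0.20 to 0.17), 0.06 in Gadd45b (−0.07 to 0.18) and 0.04 in Gadd45g (−0.12 to 0.20). The smallest adjusted p of the 3 was 0.923 (edgeR), and 0.0425% of all genes passed (8 genes, 1206 at an unadjusted p under 0.05). WT/TG mice differed by −0.02, 0.04 and −0.08 (edgeR adjusted p = 1 for each, 0.0159% of genes called) and HET/TG mice by 0.05, 0.10 and −0.05 (edgeR adjusted p from 0.877 to 0.983, 0.0478% of genes called). The effect of HET/WT did not depend detectably on light cycle, set or sex in any member. In edgeR 0 of 18841 genes passed each of those 3 interactions, while 1331, 812 and 1051 had an unadjusted p under 0.05, and by DESeq2 the counts were 2 by light cycle and 0 by set and by sex. Among the members the Gadd45b difference by set came nearest, 0.25 on the log2 scale with an unadjusted p of 0.0502 (edgeR adjusted p = 1.00).

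Between the sets, Gadd45g was higher in the calorimetry mice by 0.15 ± 0.059 on the log2 scale (SE, edgeR adjusted p = 0.0217), with medians of 5.59 CPM in CLAMS and 5.00 CPM in RW (63 libraries each). Most genes differed between the sets, 62.2% of those tested, and 1 of the 3 members did. Housing, the light at collection and the handling of each set cannot be told apart. Cell type markers also differed, to be read against the same 62.2%. In the calorimetry set 6 of 6 striatal markers (median −0.72 on the log2 scale) and 4 of 6 choroid plexus markers (−1.14) were lower. There 4 of 6 blood markers (1.06) were higher, and of 4 oligodendrocyte precursor markers 3 were lower and 1 higher. All 6 inhibitory neuron markers passed, 3 higher and 3 lower, and 5 of 6 oligodendrocyte markers, 4 of them higher. Microglia markers passed in 5 of 6 cases (3 higher), endothelial and mural ones in 5 of 6 (2 higher) and astrocyte ones in 4 of 6 (3 higher). Excitatory neuron markers passed in 3 of 6 cases (1 higher) and olfactory bulb ones in 2 of 4 (1 higher). The part of these markers in the Gadd45g difference was not tested. Gadd45a differed by 0.06 (edgeR adjusted p = 0.437) and Gadd45b by −0.01 (edgeR adjusted p = 0.847). Leaving out all libraries of 1 replicate number, the Gadd45g difference passed in 1 of 4 cases. With the length slope as a covariate it turned to −0.28 and did not pass, and that of Gadd45a became 0.40 and passed (edgeR adjusted p = 0.104 and 0.047).

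**Figure D4:**
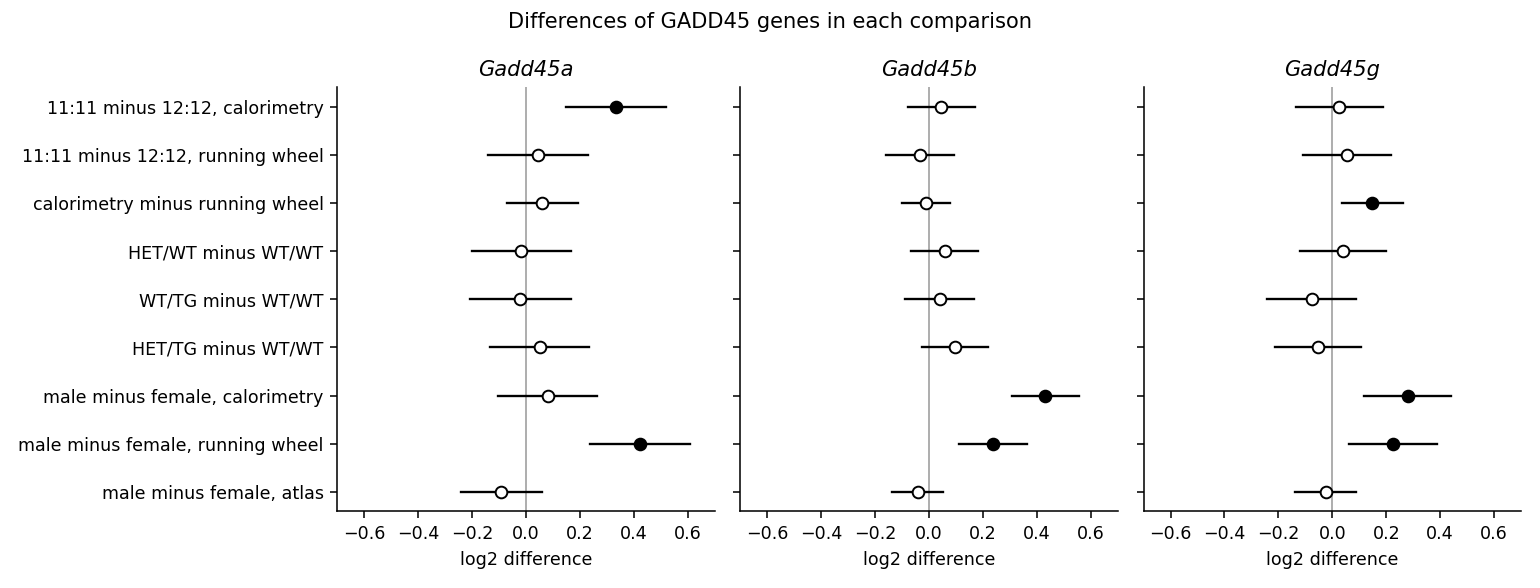
Log2 difference (horizontal axis) of each GADD45 gene in 9 comparisons (rows), with lines for the 95% interval and filled points where the adjusted p was under 0.05. All 9 genotype intervals include 0, and the filled points are those of Gadd45a for light cycle in the calorimetry set and for sex in the running wheel set, of Gadd45b for sex in both ZT6 sets, and of Gadd45g for set and for sex in both ZT6 sets.

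At ZT6 all 3 members were higher in males than in females, against 58.1% of all genes called in either direction and 27.6% called higher in males. Over both sets Gadd45b had the largest difference, although that of Gadd45a was larger in the running wheel set alone, and over both sets with the length slope as a covariate (0.52 against 0.39). Gadd45b had 6.38, 9.98 and 16.3 CPM in the lowest, median and highest of 62 males and 4.87, 8.22 and 12.7 CPM in those of 64 females. The difference was 0.33 ± 0.045 on the log2 scale (SE), 1.26-fold, with an edgeR adjusted p of 1.58e-10. Its mean was higher in males in all 8 combinations of light cycle and genotype in the calorimetry set and in 7 of 8 in the running wheel set. Within the sets the difference was 0.43 (edgeR adjusted p = 2.73e-09, 63.1% of genes called) and 0.24 (edgeR adjusted p = 0.00163, 33.8% of genes called), and the change between sets did not pass (0.19, edgeR adjusted p = 0.0616).

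For Gadd45a the sex difference lay in the running wheel set. There it was 4.27, 7.44 and 12.3 CPM in the lowest, median and highest of 31 males and 2.93, 5.60 and 8.05 CPM in those of 32 females, a log2 difference of 0.42 ± 0.095 (SE, edgeR adjusted p = 1.48e-04). Males had the higher mean in 8 of 8 combinations. In the calorimetry set the medians were 7.00 CPM in males and 6.37 CPM in females and the difference was 0.08, with a 95% interval from −0.10 to 0.26 (edgeR adjusted p = 0.471). The difference between the sets, a comparison added after seeing the data like those of sex within a set, was itself past the threshold, −0.34 on the log2 scale (edgeR adjusted p = 0.0251, 51.8% of genes called). It fell short without all libraries numbered 4, where it was −0.18 (edgeR adjusted p = 0.296), and without all those numbered 2, where it was −0.38 (edgeR adjusted p = 0.062). E230016M11Rik showed the opposite pattern, with males higher by 0.66 in the calorimetry set and a difference of −0.05 in the running wheel set.

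Gadd45g was higher in males by 0.25 on the log2 scale (edgeR adjusted p = 1.09e-04), with medians of 5.74 CPM in males and 4.66 CPM in females. The difference was 0.28 in the calorimetry set (edgeR adjusted p = 0.00194) and 0.22 in the running wheel set (edgeR adjusted p = 0.0271). With the length slope as a covariate it turned to −0.09 over both sets and did not pass (edgeR adjusted p = 0.596), so its direction depends on that choice. Leaving out all libraries of 1 replicate number, it passed in 4 of 4 cases over both sets, in 2 of 4 in the calorimetry set and in 1 of 4 in the running wheel set. Under the same covariate the difference of Gadd45b was 0.39 (edgeR adjusted p = 4.38e-04) and that of Gadd45a 0.52 (edgeR adjusted p = 0.00168).

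In the atlas, by contrast, no member passed between the sexes, although 41.1% of genes did. Male minus female was −0.09 for Gadd45a (95% interval −0.24 to 0.06, edgeR adjusted p = 0.356), −0.04 for Gadd45b (−0.14 to 0.05, edgeR adjusted p = 0.512) and −0.02 for Gadd45g (−0.14 to 0.09, edgeR adjusted p = 0.771). The atlas and the ZT6 table were separate count tables of mice that differed in housing and handling, and the change between them was not tested. Blood markers moved with sex: at ZT6 4 of 6 were higher in males, and their summed level was 110 to 377 CPM (median 200.4) in CLAMS males, 44.3 to 168 CPM (median 85.6) in CLAMS females, 63.3 to 174 CPM (median 83.4) in RW males and 39.2 to 100.4 CPM (median 63.7) in RW females. In the atlas 6 of 6 were higher in males. Striatal markers were lower in males in 4 of 6 cases at ZT6 (median −0.57 on the log2 scale) and in 6 of 6 in the atlas (−1.73). Of 4 oligodendrocyte precursor markers at ZT6, 3 were lower and 1 higher in males (median −0.36), and of 6 inhibitory neuron markers 3 were higher and 2 lower. Oligodendrocyte markers passed in 4 of 6 cases, 3 higher and 1 lower in males, and astrocyte markers in 3 of 6, all higher. Summed oligodendrocyte markers had medians of 5588 CPM in CLAMS males, 3917 in CLAMS females, 3811 in RW males and 3755 in RW females. Those of excitatory neurons were 5512, 4539, 4416 and 5036 CPM in the same order. Microglia markers, like endothelial and mural ones, passed in 3 of 6 cases, 1 higher and 2 lower. Ribosomal RNA averaged 2.66% of counts in CLAMS males, 0.40% in CLAMS females, 0.253% in RW males and 1.98% in RW females. The highest library of each had 8.44%, 1.05%, 0.897% and 40.6% in the same order. The 40.6% belongs to a single library, replicate 1 of the RW WT/TG females on 11:11, which raises the average of the RW females. The part of these in the sex differences of the GADD45 genes was not tested.

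**Figure D5:**
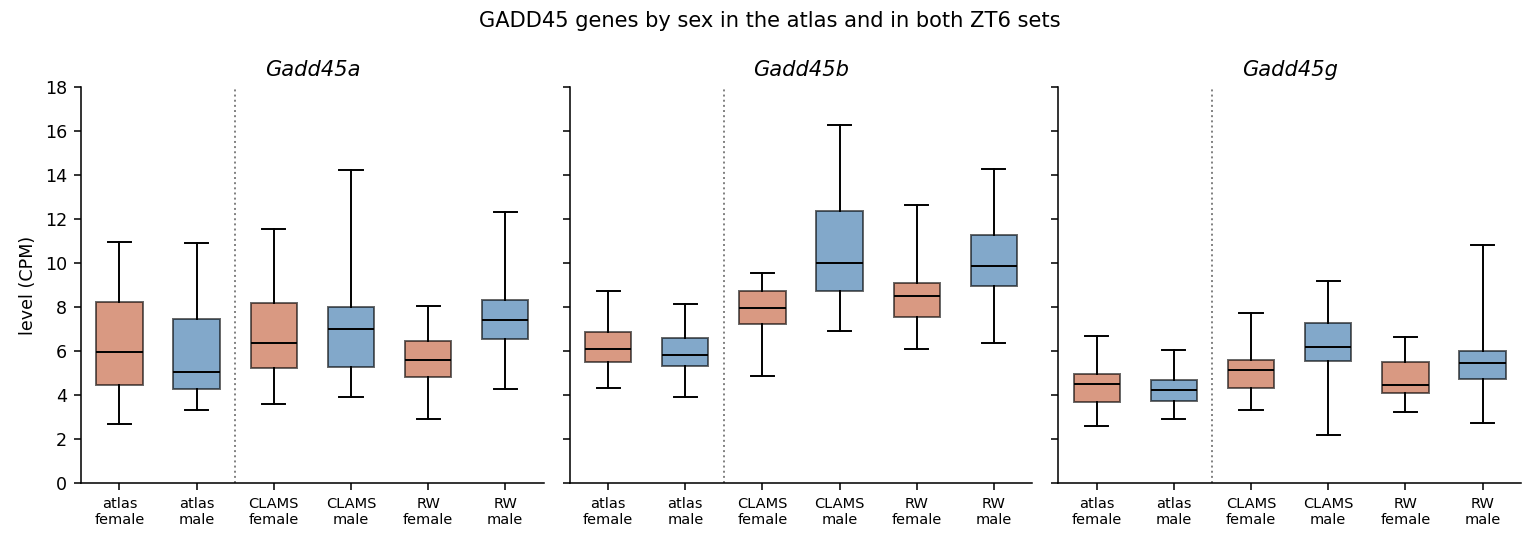
Level in CPM (vertical axis) of each GADD45 gene by sex (horizontal axis) in the atlas and in both ZT6 sets, as boxes from the lower to the upper quartile with the median as a line and whiskers to the lowest and highest library; the dotted line divides the separately scaled tables. Median Gadd45b was 9.98 CPM in males and 8.22 CPM in females over both ZT6 sets, while both sexes were alike in the atlas.

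Replicate spread was larger than counting error for every member. The median count per library was 83.5 for Gadd45a, 92 for Gadd45b and 66.5 for Gadd45g in the atlas. The counting error over the libraries came to 11.1%, 10.5% and 12.5% of the level, against a spread within groups of 24.6%, 14.6% and 18.1%. At ZT6 the median counts were 111.5, 156.5 and 95, the counting errors 9.71%, 8.12% and 10.7% and the spreads 26.2%, 17.9% and 23.3%. Gadd45a thus varied most between animals of 1 group in both tables.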

How the data were processed

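Total RNA of left prefrontal cortex was extracted, depleted of ribosomal RNA and sequenced with a directional kit, per the labels' protocols. Trim Galore, STAR, SAMtools, limma and mm10 are named in the submitters' processing notes. The counter and the strand setting used were not given in the sources used here. The authors deposited whole-number read counts per gene in 2 tables, with no normalization. Gene identifiers were matched to GENCODE vM21, in which 55141 of 55487 were found.

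Each table was fitted alone with edgeR 4.0.16 (R 4.3.3): genes were kept by filterByExpr on the groups, scaled by TMM and tested by robust quasi-likelihood, and p-values were adjusted by Benjamini-Hochberg across every gene tested, with calls at 0.05. The atlas model held sex and the cosine and sine of 24 h. The ZT6 model held a mean per genotype, light cycle, sex and set. Intervals are 95%. Log2 CPM used a prior count of 2. The p-values measure the spread between samples labelled as biological replicates. No 2 replicate libraries held identical counts. DESeq2 1.42.0, RLE scaling, no expression filter, the length slope, other time terms and left-out libraries were tried as alternatives. The test was checked on simulated counts.

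The genes named were the members, the 5 genes most correlated with each member in each table, and the 2 genes with the smallest p of each pathway list in the rhythm and light cycle comparisons. Of the genes most correlated with Gadd45g at ZT6, 1 is not reported here. Genes named outside that rule were chosen after their values were seen. The members and lists were chosen with earlier results of these data known. A running wheel male on 12:12 (WT/TG) was not analysed here.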

Additional observations from a re-analysis of the deposited data

Results flagged for a closer look

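In 138 tests, each of 1 gene in 1 group of 4 to 6 libraries, 9 found a library that stood apart from the others of its group by Dixon's 95% criterion, where chance gives about 1 in 20. For Gadd45a, replicate 4 of the atlas males at ZT3 had 6.50 CPM (next 4.96), replicate 3 of the atlas males at ZT21 had 10.2 CPM (next 5.33), and replicate 4 of the CLAMS HET/WT males on 12:12 was low at 4.38 CPM (next 7.19). For Gadd45b, replicate 1 of the atlas females at ZT18 was low at 4.55 CPM (next 6.09) and replicate 3 of the atlas males at ZT6 had 7.18 CPM (next 5.67). Replicate 3 of the CLAMS WT/WT males on 11:11 had 15.1 CPM of Gadd45b (next 8.71), and replicate 3 of the RW HET/WT males on 11:11 had 14.3 CPM (next 10.04). For Gadd45g, replicate 1 of the RW HET/WT females on 11:11 had 6.55 CPM (next 4.44). Replicate 4 of the CLAMS HET/WT males on 12:12, the library low in Gadd45a, had 9.18 CPM of Gadd45g (next 6.12).

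The male minus female difference of Gadd45a differed between the calorimetry and running wheel sets by −0.34 on the log2 scale (edgeR adjusted p = 0.0251), being 0.08 in the former and 0.42 in the latter.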

How the results depend on the processing

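Over 66 comparisons of a member and 780 recomputed values, 746 stayed on their side of the threshold, 24 no longer passed and 10 newly passed. The sign changed in 63, of which 59 belong to differences that did not pass in the first place and the other 4 are the Gadd45g values given below, and none of the 63 passed after the change. The Gadd45a rhythm passed under every alternative run, with 0.84 to 0.98 when all libraries of 1 replicate number were left out. The Gadd45a light cycle difference over both sets was 0.12 with the length slope (edgeR adjusted p = 0.341), 0.18 with RLE scaling (0.0535), 0.18 without the library richest in ribosomal RNA (0.0605) and 0.15 without the 6 deepest libraries (0.137), the last chosen after seeing the data. In the calorimetry set it was 0.24 with the length slope. Without the expression filter Gadd45a passed for light cycle by set (0.30), in calorimetry females (0.34) and in calorimetry males (0.33). With the length slope Gadd45a passed for set (0.40), and Gadd45g turned to −0.28 for set, −0.0902 for sex, −0.0701 for sex in the calorimetry set and −0.11 in the running wheel set. Gadd45b sex by set was 0.22 without the library richest in ribosomal RNA and passed. Gadd45g over the day was 0.42 with 8 separate times and 0.42 with a 12 h term, and passed. The cause of these shifts was not tested.

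Leaving out each replicate number in turn gave, for Gadd45a, 0.16 to 0.21 for light cycle (1 of 4 passed), 0.23 to 0.48 in calorimetry females (1 of 4), 0.17 to 0.30 for sex (3 of 4) and −0.41 to −0.18 for sex by set (2 of 4). For Gadd45b it gave 0.0902 to 0.32 for sex by set (1 of 4) and 0.15 to 0.30 for sex in the running wheel set (3 of 4). For Gadd45g it gave 0.10 to 0.24 for set (1 of 4), −0.0279 to 0.30 for sex by set (1 of 4), 0.20 to 0.45 for sex in the calorimetry set (2 of 4) and 0.14 to 0.27 in the running wheel set (1 of 4).

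Same-numbered libraries deviated together only slightly more than others. Their mean correlation was 0.0082 at ZT6, against −0.0027 for other numbers, and 0.0052 in the atlas, against −0.00089. Of 126 libraries at ZT6 42 correlated best with their own number, as did 17 of 92 in the atlas. A replicate block changed no member's call: the Gadd45a rhythm was 0.88 and its calorimetry light cycle difference 0.33, and the block left 6993, 2460 and 3730 genes called for rhythm, light cycle and light cycle in the calorimetry set.

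Counts over all genes moved by over 1.5 times with the length slope for light cycle (2383 to 840), light cycle in the calorimetry set (3684 to 2347), set (11713 to 6301), sex (10948 to 5324), sex in the calorimetry set (11887 to 7687) and sex difference in rhythm (13 to 31, and 26 in DESeq2). Rhythm calls were 3215 in females alone and 4305 in males alone. Without the expression filter HET/WT gave 107 genes, WT/TG 76, HET/TG 84, light cycle in the running wheel set 208, and the HET/WT interactions 106 by light cycle, 97 by set and 83 by sex. DESeq2 gave 21 genes for light cycle in the running wheel set and 6 for WT/TG. That set fitted alone gave 36, and 1 without the library richest in ribosomal RNA. HET/WT gave 5 genes in either set alone, and WT/TG 1 in the calorimetry set alone. With a replicate number left out, the lowest counts were 998 for light cycle, 298 for light cycle by set, 2438 for light cycle in the calorimetry set, 4 for HET/WT and 0 for light cycle in the running wheel set.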
